A study of Mus musculus with 3 samples.

Results

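Emb-high lung NK cells are the lung natural killer (NK) cells with abundant transcripts of Emb, which encodes embigin, a membrane glycoprotein that partners monocarboxylate transporters. They were selected on their Emb counts in single-cell RNA sequencing of lung cells from a naive library and from a library made 6 h after PyMT cells, a mouse mammary tumor line, had been given by vein. A cell counted as Emb-high when Emb reached 500 CPM, the usual scaling of counts to a fixed total, applied to the gene counts of the single cell, with at least 3 Emb counts, among barcodes with 800 to 5000 genes and at most 6% mitochondrial counts whose hashtag B0304 held at least 90% of the tag counts. This rule took 604 of 3676 naive lung cells and 814 of 4680 lung cells at 6 h, 1418 of 8356 in all. The series held 21754 barcodes past the same filter on genes and mitochondrial counts.

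The study followed NK cells in lung and blood of female wild-type mice aged 9 weeks. One library came from naive mice that received no tumor cells, one from mice 6 h and one from mice 14 days after 100000 PyMT cells were injected into a vein. Each library pooled the lung and the blood NK cells of several animals, and the animals cannot be told apart in the files. That B0304 marks lung and B0306 blood is read from the order in which the sources name tissues and tags. The cells had been sorted as live NK1.1+NKp46+ cells, so the Klrb1c and Ncr1 transcripts, which encode these proteins, belong to the gate. Each condition was a single library. Therefore no test between conditions was possible, and all intervals given here are exact 95% intervals that cover counting error only.

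Mouse NK cells mature from CD27-positive cells with little CD11b (Itgam) to CD11b-positive cells that hold more granzyme and perforin and carry CX3CR1 and KLRG1. Less differentiated cells are known for Tcf7, Kit, Il7r and Cd27, and they circulate between tissues and lymph. Mature cells are known for Zeb2, Prdm1, S1pr5 and Cx3cr1 and are abundant in the lung vasculature. Group 1 innate lymphoid cells (ILC1) share NK1.1 and NKp46 with NK cells but hold little Eomes and more Il7r, Cxcr6 and Tmem176a.

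Emb-high cells made up 16.4% of naive lung cells (15.2 to 17.7%) and 17.4% of lung cells at 6 h (16.3 to 18.5%). The 2 intervals overlapped. In contrast, the same rule took 137 of 4367 naive blood cells (3.14%), 76 of 2746 blood cells at 6 h (2.77%) and 35 of 2069 blood cells at 14 days (1.69%). In the 14-day lung it took 456 of 3575 cells (12.8%, 11.7 to 13.9%). The intervals of lung and blood did not overlap in any of the 3 libraries. Emb-high lung cells were also deeper than the others, with a median of 7090 against 5727 counts per cell in the naive library and 8802 against 6712.5 at 6 h. Ribosomal protein genes took 14.8% against 12.6% and 17.1% against 14.0% of the counts, and the median mitochondrial share was 3.18% against 2.89% and 3.59% against 3.22%. When every cell was thinned to 3000 counts, which left out 2 Emb-high and 84 other naive and 1 and 39 6 h lung cells below that depth, at least 2 Emb counts remained in 17.3% of naive lung cells, 16.9% of lung cells at 6 h, 3.98% of naive blood cells and 4.37% of blood cells at 6 h. Hence lung stayed above blood at equal depth, whereas the order of the naive and 6 h lung shares turned around. That order also turned when a cell needed 99% of its tag counts on B0304, with 21.6% in the naive and 20.03% in the 6 h library.

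**Figure D1:**
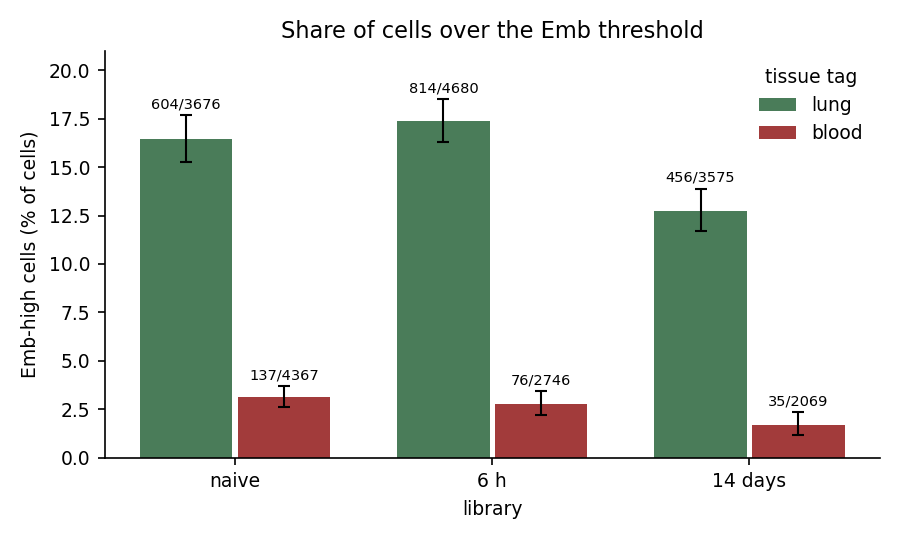
Percent of cells over the Emb threshold (vertical axis) by library and tissue tag. Bars give the share, error bars the exact 95% interval and the labels the counts; the lung bars lie between 12.8% and 17.4% and the blood bars between 1.69% and 3.14%.

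The Emb gene lies on chr13:117208536-117274415 of GRCm38. Since Emb chose the cells, its values describe the rule and are not a result. Emb stood at 1657 CPM, taken here and below on counts summed over cells, in the naive Emb-high cells and at 52.4 CPM in the other naive lung cells. At 6 h it stood at 1670 and 49.9 CPM. The single cells ranged from 3 to 110 Emb counts in the naive and from 3 to 95 in the 6 h library, with medians of 9 and 11. No Emb count was found in 68.7% and 67.6% of all lung cells. The threshold cuts a continuous range, as 47 naive members and 87 members at 6 h lay between 500 and 600 CPM. Just outside it, 108 naive and 186 6 h lung cells had 3 or more Emb counts but at most 492 and 499 CPM. Among Emb-high cells, 37.1% of the naive and 47.9% of the 6 h lung cells had at least 12 Emb counts, against 6.57% and 9.21% of those in blood. Free RNA, read from barcodes with at most 100 counts, held 111 and 162 CPM of Emb and could account for at most 0.385% and 0.377% of the Emb counts of the members.

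The other markers given for this population were Plxnc1, a receptor for semaphorin 7A, Cables1, an adaptor of cyclin-dependent kinases, and Cxcr4, the receptor for CXCL12. Plxnc1 stood at 150 CPM in Emb-high and 52.7 CPM in other naive cells (log2 ratio 1.51, 1.37 to 1.65) and at 169 and 40.7 CPM at 6 h (log2 ratio 2.05, 1.93 to 2.17). Cables1 stood at 116 and 31.2 CPM in the naive library and at 133 and 32.1 CPM at 6 h. The difference was smallest for Cxcr4, with 255 against 152 CPM in the naive library (log2 ratio 0.74) and 264 against 142 CPM at 6 h (log2 ratio 0.90). All 3 markers were higher in Emb-high cells in both libraries, but they had been chosen with values of these same libraries known, so this is a description and no independent check of the label. After thinning to 3000 counts, transcripts of all 3 were found in 2.99% of naive and 3.69% of 6 h Emb-high cells, and none of them in 33.9% and 29.2%. The other lung cells lacked all 3 markers in 59.04% and 61.5%. At this depth a cell without a count may still hold the transcript, and whether the 4 genes mark the same single cells was not tested.

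Emb-high cells held more transcripts of less differentiated NK cells than the other lung cells of the same library. Of 21 such genes, 19 reached 50 CPM in the higher group of both libraries, and 16 of these were higher in Emb-high cells by a log2 ratio of at least 0.5 in both. Across the 3765 genes at 50 CPM without Emb, 117 (3.11%) were higher and 66 (1.75%) lower by the same measure. Since the Emb rule made this contrast, the counts describe the cells and are read no further. A gene such as Il7r passed the minimum through the Emb-high cells alone.

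Il7r, the interleukin-7 receptor, on chr15:9505788-9530176, showed the widest gap among the genes at 50 CPM besides Emb. It stood at 95.5 CPM in Emb-high against 4.59 CPM in other naive cells (log2 ratio 4.38, 4.04 to 4.73) and at 87.1 against 5.56 CPM at 6 h (log2 ratio 3.97, 3.72 to 4.23). A small ILC1-like cluster described below gave 51.0% and 34.3% of these Emb-high counts. Without that cluster Il7r stood at 48.5 CPM in naive Emb-high cells, under the minimum. An Il7r count was found in 10.9% and 13.4% of Emb-high cells at full depth and in 8.97% and 9.47% of them after thinning to 3000 counts, against 0.803% and 0.993% of the other thinned cells. These shares depend on depth, and a cell without a count may still hold the transcript.

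Ltb, which encodes lymphotoxin beta, stood at 74.6 against 6.71 CPM in the naive library and at 121 against 15.8 CPM at 6 h. Tcf7, the transcription factor TCF1 of early NK cells, stood at 112 against 24.6 CPM and at 110 against 25.2 CPM (log2 ratios 2.18 and 2.12). Kit, the stem cell factor receptor, stood at 71.5 against 13.4 CPM and at 60.9 against 12.3 CPM. Each of the 3 was over 4 times as high in Emb-high cells in both libraries. Cd27 reached 142 against 33.4 CPM in the naive and 159 against 40.9 CPM in the 6 h library. Ccr2, a chemokine receptor for CCL2, was abundant throughout, with 428 against 180 CPM and 459 against 173 CPM.

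Thy1, Cd28, Ctla2a, Cd7, Icos, Aff3, Angpt1, Cmah, Cd226 and Xcl1 completed the 16. Their log2 ratios ran from 0.52 and 0.51 for Xcl1, a chemokine for dendritic cells, to 1.81 and 1.85 for Aff3. Lef1 (0.35 and 0.44) and Il18r1 (0.40 and 0.29) stayed under the fold. Tnfrsf9, which encodes the costimulatory receptor 4-1BB, stood at -0.11 and -0.09. Cxcr3, a receptor of less differentiated NK cells, and Tnfsf10 did not reach 50 CPM, and Cxcr3 stood at 33.1 against 8.13 CPM in the naive library.

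Among the genes ranked by the log2 ratio nearer to 0 of the 2 libraries, the 12 highest besides Emb were Il7r, Ltb, Slco3a1, Kit, Tcf7, Cd27, Camk4, Cables1, Aff3, Pdcd1lg2, Gramd3 and Mfsd6. Slco3a1, an organic anion transporter, stood at 55.8 against 7.39 CPM in the naive and 64.0 against 5.67 CPM in the 6 h library. Camk4, a calcium-dependent kinase, stood at 59.1 against 12.8 and 51.6 against 13.8 CPM. Pdcd1lg2, which encodes the PD-1 ligand PD-L2, stood at 57.4 against 16.7 and 93.5 against 23.8 CPM. No single cell gave more than 7.85% of the counts of these 12 genes in either Emb-high group.

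**Figure D2:**
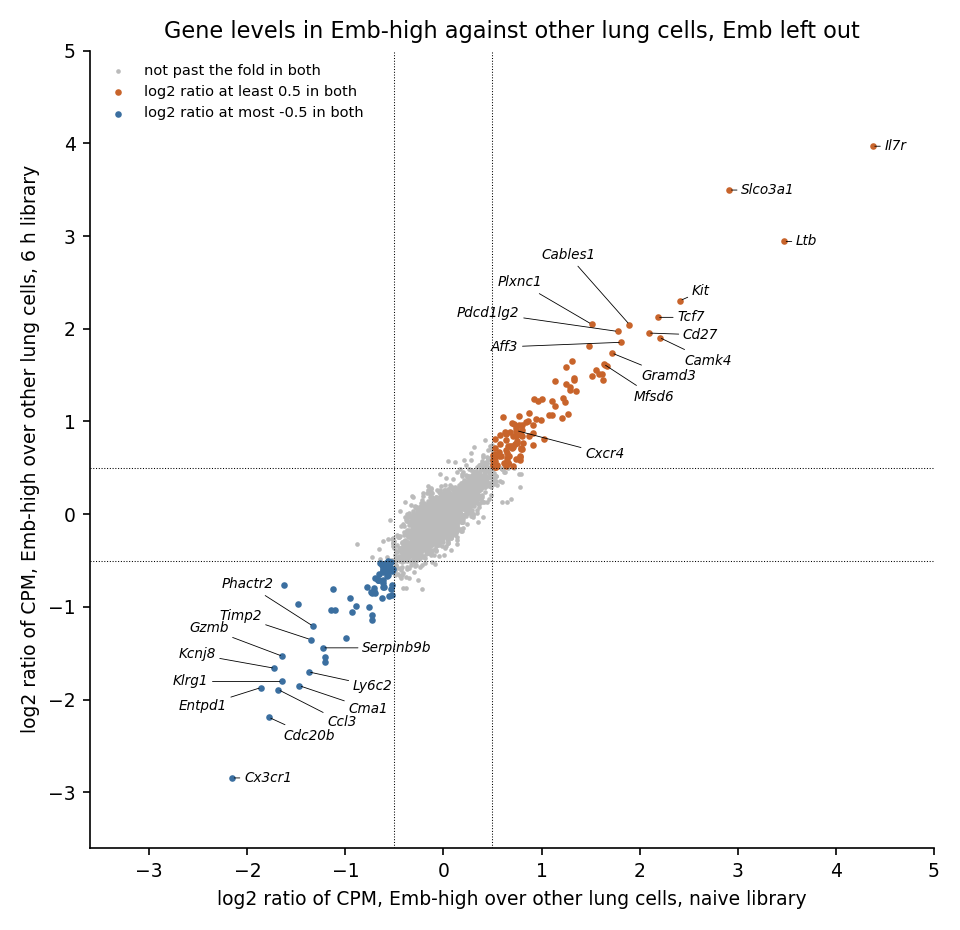
Log2 ratio of CPM in Emb-high over other lung cells, naive library on the horizontal and 6 h library on the vertical axis, for the 3765 genes at 50 CPM in the higher group (Emb left out). Each point is a gene; 117 orange points lie at 0.5 or above and 66 blue points at -0.5 or below in both, with Il7r and Cx3cr1 at the ends.

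Genes of mature NK cells showed the opposite pattern. Of 21 genes 20 reached 50 CPM, and 18 of them were lower in Emb-high cells by at least 0.5 in both libraries. The median log2 ratio of these 20 was -0.91 in the naive and -1.07 in the 6 h library, against -0.04 and -0.05 for all genes, whereas that of the 19 less differentiated genes was 1.25 and 1.33. The medians and counts of both lists are a description only. Il7r, Ltb, Kit, Tcf7, Cd27 and Thy1 among others were under 50 CPM in the other cells and passed the minimum through the Emb-high cells. In the mature list, Cx3cr1 in both libraries and S1pr5 at 6 h were under 50 CPM in Emb-high cells. They passed through the other cells. Cx3cr1, the fractalkine receptor on chr9:119901616-120069879, showed the widest gap, with 24.9 CPM in Emb-high against 111 CPM in other naive cells (log2 ratio -2.15, -2.44 to -1.88) and 14.4 against 104 CPM at 6 h (log2 ratio -2.85, -3.13 to -2.57). Klrg1, an inhibitory receptor of mature cells, stood at 66.2 against 207 CPM and at 57.2 against 200 CPM. In each gene both Emb-high values lay well under both values of the other cells.

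Entpd1 (CD39), Cdc20b, Ccl3, Kcnj8, Gzmb, Cma1, Ly6c2, Timp2, Serpinb9b and Phactr2 were the other genes among the 12 lowest. Gzmb, the granzyme that starts apoptosis in target cells, stood at 395 against 1232 CPM in the naive and 498 against 1442 CPM in the 6 h library. Prf1, the pore-forming perforin, stood at 799 against 1519 CPM and at 737 against 1534 CPM. Gzma remained the most abundant effector in both groups, at 6705 against 12418 CPM and 6556 against 12997 CPM. These 3 were the lower ones of 10 cytotoxic effector genes at 50 CPM, the other 7 did not pass the fold, and the list medians were -0.24 and -0.30. A thinned Gzmb count was found in 51.7% and 57.1% of Emb-high cells and in 85.7% and 89.4% of the others. Itgam, which encodes CD11b, stood at 198 against 329 CPM and at 139 against 295 CPM. Ahnak (-0.12 and -0.24) and Rap1gap2 (-0.47 and -0.58) did not pass the fold in both libraries, and Cd55 did not reach 50 CPM.

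Transcripts for trafficking were split. Of 12 chemokine receptor and egress genes at 50 CPM, Cxcr4, Ccr2 and S1pr1 were higher and Cx3cr1 and S1pr5 lower in Emb-high cells. The 2 sphingosine-1-phosphate receptors, which guide exit from tissues, moved apart. S1pr1 stood at 79.2 against 25.2 CPM in the naive and 69.4 against 22.7 CPM in the 6 h library, whereas S1pr5 stood at 66.0 against 131 CPM and 43.2 against 109 CPM. Klf2, a factor that drives S1pr1, had log2 ratios of -0.41 and -0.63 and did not pass the fold in both libraries. Cd69, which holds S1PR1 inside the cell, stood at 56.5 against 32.8 CPM in naive but at 67.9 against 55.4 CPM in 6 h cells, so its log2 ratio passed the fold in the naive library alone (0.78 and 0.29, difference not tested). Gpr183, an oxysterol receptor, stayed under the minimum at 34.6 against 5.18 CPM in the naive library.

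Among 15 integrin and adhesion genes none was higher past the fold and 4 were lower, namely Itgam, Itgb2, Icam1 and Spn. Itgb2, the shared beta chain of LFA-1 and CD11b, had log2 ratios of -0.59 and -0.52, while Itgal, the alpha chain of LFA-1, had -0.15 and -0.17. Itga4 and Itgb1, the chains of VLA-4, stood at -0.26 and -0.38 and at -0.02 and 0.01. Cd44, a hyaluronan receptor, stood at 0.59 and 0.49. Plxnc1 was the only one of 3 semaphorin and plexin genes past the fold. Sema4a (-0.08 and -0.13) and Sema4d (0.10 and 0.16) differed little, and Sema7a, which encodes the ligand of plexin C1, had no count in the Emb-high cells of either library.

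Embigin escorts lactate transporters to the membrane, yet the other genes of this pathway stayed under the fold. Bsg, which encodes the related escort basigin, stood at 132 against 128 CPM in the naive and 150 against 143 CPM in the 6 h library. Ldha, lactate dehydrogenase A, stood at 188 against 187 and 201 against 190 CPM. The transporter gene Slc16a1 was low, at 12.1 against 8.66 CPM and 13.8 against 8.43 CPM. None of the 4 genes of this group at 50 CPM (Bsg, Ldha, Ldhb and Cd44) and none of 13 glycolysis genes passed the fold in both libraries, with glycolysis medians of -0.09 and -0.02.

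Of 30 transcription factors at 50 CPM, 4 were higher (Tcf7, Aff3, Ikzf2 and Rora) and 4 lower (Zeb2, Tbx21, Prdm1 and Irf8). Rora stood at 221 against 90.6 CPM in the naive and 197 against 76.3 CPM in the 6 h library. Zeb2, a repressor needed for terminal maturation, stood at 826 against 1399 CPM and 555 against 1109 CPM. Tbx21, which encodes T-bet, had log2 ratios of -0.58 and -0.67. Eomes, which separates NK cells from ILC1, was nearly level, with 305 against 287 CPM and 269 against 244 CPM. Tox (0.40 and 0.63), Zeb1 (0.47 and 0.73) and Bach2 (0.45 and 0.49) lay close to the fold in at least 1 library.

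**Figure D3:**
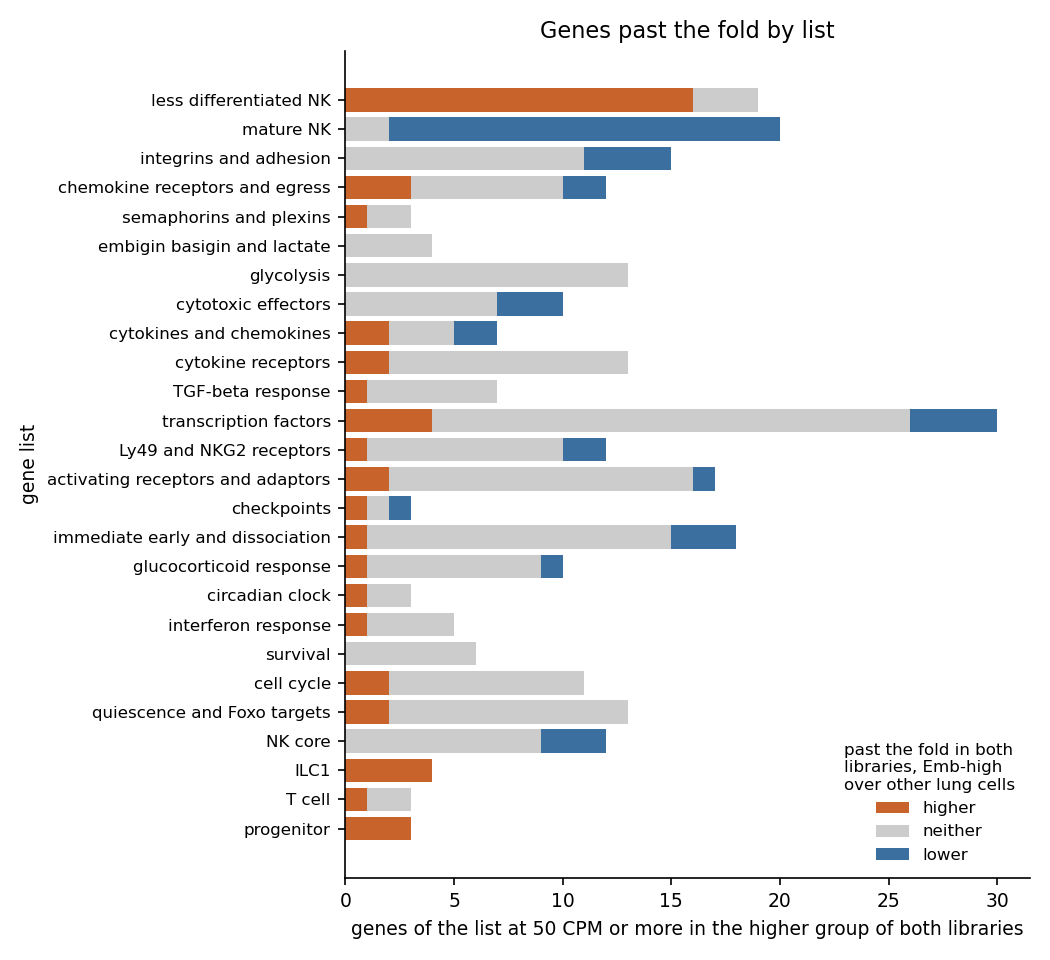
Number of genes at 50 CPM (horizontal axis) in each gene list with 3 or more such genes, split into genes higher, lower or neither in Emb-high over other lung cells of both libraries. The less differentiated list holds 16 higher genes and the mature list 18 lower genes, while 13 of 13 glycolysis genes are in neither class.

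Receptors of NK cells differed in both directions. Of 12 Ly49 and NKG2 genes, Klrc1 (NKG2A) was higher with log2 ratios of 0.50 and 0.53, and Klra9 and Klra3 were lower. The Klra genes are closely similar copies, and reads may be split among them. Of 17 activating receptors and adaptors, Cd226 and Cd160 were higher and Klrb1c lower. Klrb1c is part of the sort gate, as is Ncr1, which stood at 709 against 941 CPM and at 754 against 965 CPM. Among 13 cytokine receptors only Il7r and Tgfbr2, the type 2 receptor for TGF-beta, were higher. Tgfbr2 was also the only one of 7 TGF-beta response genes past the fold. Il2rb, shared by the interleukin-2 and interleukin-15 receptors, differed by 0.07 and 0.03. Of 7 cytokine and chemokine genes, Xcl1 and Ltb were higher and Ccl3 and Ccl4 lower, and Ifng stood at -0.43 and -0.69. Of 3 checkpoint genes, Socs3 was higher and Klrg1 lower.

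Genes of cell state and stress were described by list as well. Of 18 immediate early and dissociation genes, Fos was higher (0.74 and 0.85) and Gadd45b, Dusp2 and Zfp36 lower. Their summed level was 6023 against 6330 CPM in the naive and 6458 against 6610 CPM in the 6 h library, led by Junb. Lung had been digested with enzymes at 37 °C and blood had not, and the part of this step in Fos was not tested. Without every cell that had a count of Fos, Fosb, Egr1, Nr4a1, Atf3, Hspa1a or Hspa1b, 102 genes were higher and 64 lower, of which 82 and 46 were shared with the full set. This choice was made after the data had been seen. Cxcr4 was the higher and Sgk1 the lower of 10 glucocorticoid response genes, and Rora was the only one of 3 clock genes past the fold. Ly6e was the only one of 5 interferon genes, none of 6 survival genes was, and Cdk6 and Cables1 were the ones among 11 cell cycle genes. Mki67, which marks dividing cells, was under the minimum, at 8.82 against 8.93 CPM in the naive and 2.86 against 8.85 CPM in the 6 h library. Il7r and Ssh2 were higher among 13 quiescence genes.

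NK core genes were abundant in Emb-high cells, and all 12 reached 50 CPM. None was higher, and Gzma, Prf1 and Klrb1c were lower in Emb-high cells past the fold. A thinned Ncr1 count was found in 83.9% of naive and 87.2% of 6 h Emb-high cells. Of 12 ILC1 genes, 4 reached 50 CPM, namely Il7r, Rora, Ikzf2 and Ltb, and these were higher past the fold. Il7r, Ikzf2 and Ltb reached the minimum only through the Emb-high cells, so this count is a description, and the 12 genes summed to 610 against 215 CPM in the naive and 647 against 221 CPM in the 6 h library. A count of Cxcr6, Tmem176a or Tmem176b was found in 3.16% and 2.83% of thinned Emb-high cells against 1.24% and 0.836% of the others. Progenitor genes were led by Kit, Ikzf2 and Il7r, while Cd34 and Flt3 were near 0.

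Markers of other cell types were summed by list, and their part in the other results was not tested beyond the values given here. T cell genes summed to 717 against 512 CPM and 736 against 491 CPM, led by Trbc1, which NK cells also transcribe. The 3 T cell genes at 50 CPM had positive log2 ratios in both libraries, with medians of 0.43 and 0.52, and 1 was past the fold. Of the 13 T cell genes, 3 were at 0 in the Emb-high cells of each library, among them Cd4 and Cd8b1. A thinned count of Cd3d, Cd3e or Cd3g was found in 3.65% and 5.04% of Emb-high cells against 2.21% and 2.77% of the others. The B cell sum was 65.5 against 29.0 CPM and 68.8 against 34.2 CPM, of which Ighm gave 62.9 and 67.5 CPM in Emb-high cells, while Pax5 was at 0. Myeloid genes summed to 523 against 258 CPM and 620 against 272 CPM, led by Ccr2, which NK cells share. Lyz2, the myeloid lysozyme, had 2 counts in naive Emb-high cells but 451 at 6 h, of which all but 2 came from 2 cells. Their part in other values was measured by leaving out all cells with Lyz2, S100a8, S100a9, Csf1r, Cd79a or Hbb-bs, which gave 121 higher and 66 lower genes. Endothelial genes summed to 143 against 123 CPM and 146 against 122 CPM, led by Calcrl and Pecam1, with Cdh5 and Cldn5 at 0. ILC2 and ILC3 genes summed to 154 against 271 CPM and 142 against 264 CPM, led by Gata3 in the Emb-high cells, and Il17a and Il22 were at 0. Neutrophil, mast cell and basophil, platelet, erythroid, and epithelial and fibroblast genes each summed to less than 5 CPM in the Emb-high cells.

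For genes such as Tcf7 and Cx3cr1 the levels already differed below the threshold. These classes were made from the Emb values that the rule used, so their levels are a description. Lung cells without an Emb count, cells with some Emb outside the rule, and the Emb-high cells below and above their median Emb level were summed separately. Tcf7 stood at 16.5, 54.6, 85.1 and 136 CPM across these classes in the naive and at 15.7, 60.0, 82.4 and 135 CPM in the 6 h library. Cx3cr1 stood at 128, 47.1, 35.1 and 15.4 CPM and at 119, 46.3, 22.0 and 7.5 CPM. Both genes ran in 1 direction across all 4 classes in both libraries. Il7r stayed low outside the rule, at 4.1 and 6.3 CPM in the naive library, and stood at 55.5 and 133 CPM in the 2 Emb-high classes. At 6 h the Il7r values were 5.0, 7.8, 35.1 and 135 CPM, and in the 14-day lung 4.9, 28.5, 56.6 and 224 CPM. Camk4 stood at 12.6, 13.8, 43.3 and 74.0 CPM in the naive and at 12.5, 18.5, 39.1 and 63.1 CPM in the 6 h library. Eomes stood between 284 and 312 CPM in all 4 naive classes. Median depth ran the same way as Emb, from 5590 to 7459.5 counts per cell in the naive and from 6544 to 9374 in the 6 h library. With the other cells weighted to the depths of the Emb-high cells, 100 genes were higher and 51 lower, 97 and 47 of them shared with the unweighted set.

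**Figure D4:**
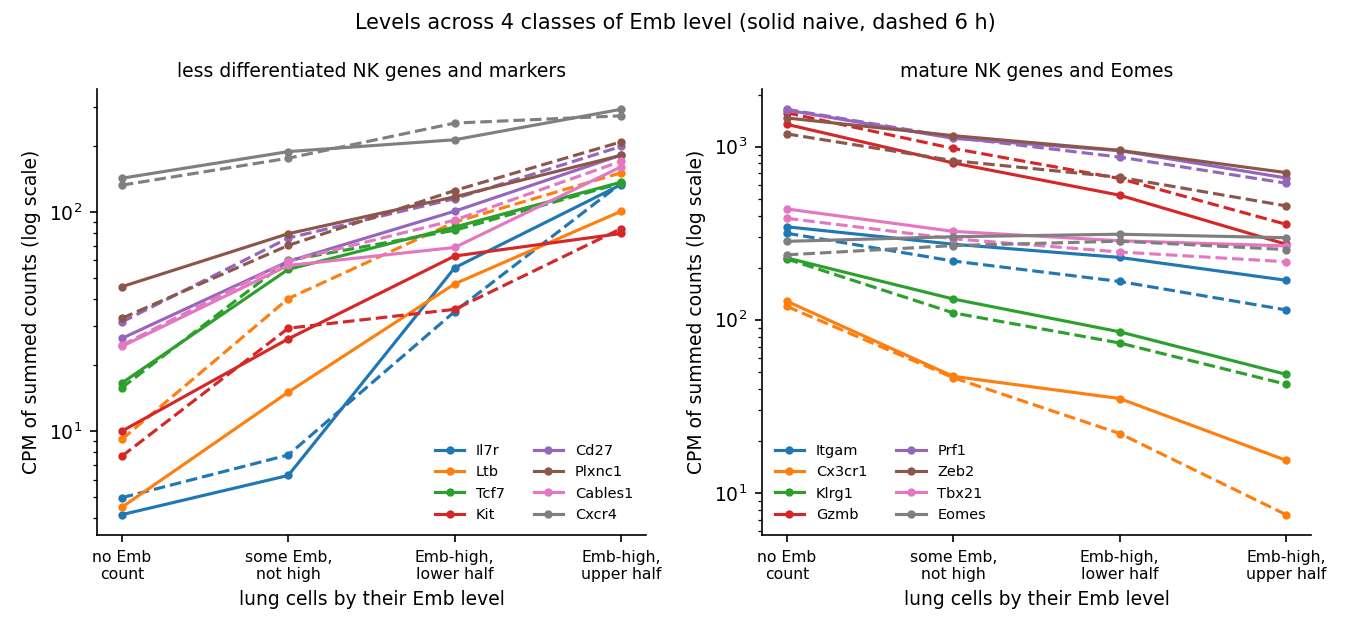
CPM of summed counts (vertical log axis) in 4 classes of lung cells ordered by Emb level, solid lines for the naive and dashed lines for the 6 h library. Tcf7 runs from 16.5 to 136 CPM and Cx3cr1 from 128 to 15.4 CPM in the naive library, while Eomes stays between 284 and 312 CPM.

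Cd27 and Itgam define the stages of NK maturation on the protein level. Of thinned Emb-high cells, 18.1% (15.1 to 21.4%) in the naive and 24.0% (21.1 to 27.1%) in the 6 h library had Cd27 without Itgam, against 4.42% and 5.25% of the other cells. Itgam without Cd27 was found in 31.4% and 21.8% of Emb-high and in 54.2% and 49.9% of other cells. Both transcripts together were found in 10.3% and 9.35% of Emb-high cells, and neither in 40.2% and 44.9%. Thus, Cd27 without Itgam was more frequent in Emb-high than in other cells, but among the naive Emb-high cells themselves Itgam without Cd27 was more frequent than Cd27 without Itgam. At 3000 counts the largest class of Emb-high cells showed neither, whereas that of the other cells was Itgam without Cd27. A cell without a count may still hold the transcript.

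Clustering of all naive and 6 h lung cells without Emb, Plxnc1, Cables1 and Cxcr4 gave 10 clusters, the smallest of 15 cells, numbered here by their share of Emb-high cells. Emb-high cells made up 79.2% of cluster 1 (487 of 615 cells), 72.1% of cluster 2 (49 of 68) and 33.0% of cluster 3 (531 of 1610). In the 6 other clusters of 50 or more cells the share lay between 0.645% and 14.3%. Depth differed as well, with medians of 9546, 7313 and 7631.5 counts per cell in clusters 1, 2 and 3. It was 8800 in cluster 4, with a share of 14.3%, and 4553 in cluster 10, with 0.645%. The part of depth in these shares was not tested. Leading genes of cluster 1 were Lyz2, Pakap, Ltb, Slco3a1 and Dscam, but Lyz2 came from 4 of its cells. Those of cluster 3 were Rab27b, Cmah, Xylt1, Aff3 and Slc16a10, and those of cluster 10, the lowest, were Gpx8, Cx3cr1, Ly6c2, Kcnj8 and Capg. Clusters 4 and 7 were led by the dividing-cell genes Pclaf and Mki67 and by Gadd45b and Icam1. At resolution 0.4 in place of 0.8, the only cluster with a majority of Emb-high cells held 82 cells, 65 of them Emb-high, so that cluster 1 depends on this setting. The libraries differed in where the members lay, as cluster 1 held 23.8% of naive and 42.1% of 6 h Emb-high cells and cluster 3 held 50.3% and 27.9%. Lung cells as a whole shifted the same way. Cluster 1 held 178 of 3676 naive and 437 of 4680 6 h lung cells, and cluster 3 held 906 and 704. The 2 libraries were clustered together without a correction for library. The share of Emb-high cells within each of these clusters differed little, with 80.9% and 78.5% in cluster 1 and 33.6% and 32.2% in cluster 3.

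**Figure D5:**
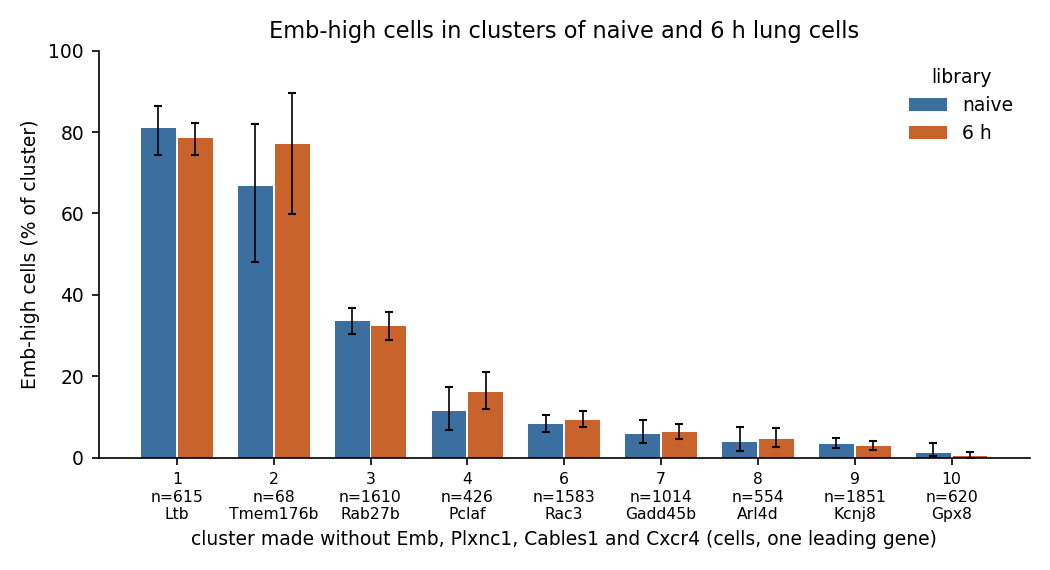
Percent Emb-high cells (vertical axis) in the clusters of 50 or more naive and 6 h lung cells, with exact 95% intervals and 1 leading gene a cluster. Clusters 1 and 2 lie above 66%, cluster 3 near 33% and the others under 17% in both libraries.

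Cluster 2 was ILC1-like. All 12 ILC1 markers were higher there than in the other lung cells, among them Il7r (914 against 14.3 CPM), Tmem176b (218 against 1.04 CPM) and Cxcr6 (170 against 1.58 CPM). Eomes stood at 34.4 against 268 CPM, whereas Ncr1 stood at 718 against 912 CPM. Cd3g, a T cell gene, was also found in 13.2% of its cells against 2.63% of the others. Its leading gene Adam19 rested on few cells, with 43.3% of the Adam19 counts from 1 cell. These 49 Emb-high cells, 3.46% of all Emb-high cells, gave 51.0% of the Il7r counts of naive and 34.3% of those of 6 h Emb-high cells. Without cluster 2, Il7r stood at 48.5 against 3.29 CPM in the naive (log2 ratio 3.88) and 59.01 against 4.58 CPM in the 6 h library (log2 ratio 3.69). Tcf7 hardly moved, at 107 against 24.4 CPM and 108 against 25.1 CPM. This alternative, added after the data had been seen, left 109 genes higher and 62 lower, of which 106 and 61 were shared with the full set. Then 13 less differentiated genes were past the fold, and Il7r itself was under 50 CPM in the naive library.

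Some genes also differed between Emb-high and other cells of the same cluster. In cluster 3, Tcf7 stood at 90.05 against 40.5 CPM in the naive library (log2 ratio 1.15, 0.86 to 1.45) and 72.1 against 30.1 CPM at 6 h, and Klrg1 at 75.6 against 147 CPM and 79.9 against 144 CPM. Cluster 1 held 144 Emb-high and only 34 other cells in the naive library and 343 and 94 at 6 h. Tcf7 stood there at 168 against 133 CPM in the naive library and at 141 against 95.3 CPM at 6 h. The naive interval of the Tcf7 log2 ratio ran from -0.18 to 0.90. For Kit and Itgam in cluster 1 the intervals included 0 in both libraries, with -0.88 to 0.25 and -0.53 to 0.09 for Itgam, and Slco3a1 had the opposite sign in the naive library (-0.19, -0.82 to 0.49). Gzmb stood there at 216 against 619 CPM and 319 against 861 CPM. Plxnc1, Cables1 and Cxcr4 were not used for clustering. In cluster 1, Plxnc1 stood at 209 against 64.5 CPM and 217 against 105 CPM. Cables1 stood there at 203 against 87.3 CPM and 175 against 117 CPM. For Cxcr4 the values were 246 against 197 CPM in the naive library and 246 against 171 CPM at 6 h. The naive interval of its log2 ratio included 0 (0.32, -0.11 to 0.77).

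Between the libraries the Emb-high cells differed in few genes. Of 3861 genes at 50 CPM in either, 52 (1.35%) were higher and 53 (1.37%) lower at 6 h by a log2 ratio of at least 0.5, against 12 of 3885 (0.309%) and 4 (0.103%) in the other lung cells. Fewer cells and counts stand behind the Emb-high values, and the difference between these counts was not tested. Among genes of the lists, Xcl1 stood at 358 CPM in naive and 657 CPM in 6 h Emb-high cells, and 250 and 460 CPM in the other cells. Ly6e stood at 260 and 432 CPM and Pim2, a survival kinase, at 39.7 and 80.8 CPM in Emb-high cells. All 3 had positive log2 ratios in the other cells as well. Zeb2 (826 and 555 CPM), Itgam (198 and 139 CPM), S1pr5 (66.0 and 43.2 CPM) and Cma1 (129 and 83.9 CPM) were the 4 mature NK genes lower past the fold at 6 h in Emb-high cells. Their log2 ratios of 6 h over naive were -0.57, -0.51, -0.61 and -0.62 in Emb-high and -0.34, -0.16, -0.26 and -0.23 in other cells. Cx3cr1 was not counted, as it was under 50 CPM in the Emb-high cells of both libraries. Its log2 ratio was -0.79 (-1.18 to -0.40) in Emb-high and -0.10 in other cells. The median of the mature list was -0.28 in Emb-high and -0.09 in other cells, against medians over all genes of -0.10 and -0.09, and Gzmb had the opposite sign (0.34, 0.26 to 0.42, in Emb-high cells). The Emb-high cells of the 2 libraries also lay in the same clusters in other proportions, with 23.8% of the naive and 42.1% of the 6 h ones in cluster 1. Over all cells of a cluster, Itgam stood at 104 CPM in cluster 1 and 285 CPM in cluster 3. The part of these proportions in the values above was not tested. Tumor cells and library cannot be told apart here.

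The 14-day lung library had no part in choosing these genes. When its 456 Emb-high cells were compared with its other lung cells, 117 of the 117 higher genes were again higher and 66 of the 66 lower genes again lower, and 90 and 57 of them passed the fold. Of all 3765 genes, 36.7% were higher there and 3.93% passed the upper fold, while 63.3% were lower and 5.71% passed the lower fold. Il7r stood at 141 against 11.4 CPM, Plxnc1 at 52.2 against 16.3 CPM and Klrg1 at 14.0 against 125 CPM in that library. In blood, where Emb-high cells were few, 107 of the 117 genes were higher in the naive and 111 in the 6 h library, where 35.9% and 43.0% of all 3765 genes were, and 89 and 90 of the 117 passed the fold, as did 5.23% and 6.85% of all genes. Of the 66 lower genes, 65 and 64 were lower in these libraries, where 64.1% and 57.0% of all genes were. In the 14-day blood 113 of the 117 were higher, against 45.7% of all genes, and 63 of the 66 lower, against 54.3%. Xcl1 was among the exceptions in every blood library, at 412 against 422 CPM in the naive and 633 against 712 CPM in the 6 h library. Blood Emb-high cells shared Il7r (112 against 9.42 CPM in the naive library) and Slco3a1 (118 against 16.6 CPM) with those of the lung. Thinned counts of Cd3d, Cd3e or Cd3g were found in 13.9% of naive blood Emb-high cells against 2.98% of others. At 6 h the blood shares were 6.58% and 3.51%, and in the 14-day lung 8.99% and 2.99%. Thinned counts of Cxcr6, Tmem176a or Tmem176b were found in 5.84% against 1.37% in naive blood and 9.21% against 1.51% in 6 h blood. In the 14-day lung they were found in 8.55% against 2.01%. The part of these cells in the values above was not tested. Cables1 was much lower in blood, at 18.8 CPM in naive Emb-high cells against 116 CPM in lung, and so was Cxcr4, at 47.4 against 255 CPM. In both genes the blood Emb-high level lay under that of the other lung cells. Blood had not been digested at 37 °C, and the part of this step was not tested.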

How the data were processed

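The authors aligned the reads with Cell Ranger to GRCm38.p6 with GENCODE M23, per the labels, and deposited raw counts (UMIs per gene and hashtag) of all barcodes for 3 libraries. Between 1388825 and 1796296 barcodes were listed a library, of which 8385 naive, 7584 6 h and 5785 14-day barcodes passed the filter. Barcodes without 90% of their tag counts on one tag (342, 158 and 141) were left out. Doublets within a tissue were not removed, and leaving out the top 5% of cells by UMIs gave 110 higher and 64 lower genes. The libraries shared 16, 11 and 7 cell barcodes pairwise. Summed counts were 4533512 and 7689394 in naive and 6 h Emb-high and 18935073 and 28233343 in other lung cells.

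Counts were summed over cells and scaled to CPM. A gene was past the fold when the log2 ratio within a library was at least 0.5 in size, with the same sign, in both libraries, at 50 CPM or more in the higher group of each. A level of 0 was set to 3 counts over the group. Intervals are exact (Clopper-Pearson for shares, conditional on summed counts for ratios). The code was tested on simulated data. Clusters came from 2000 variable genes, 30 components, 15 neighbours and Leiden at resolution 0.8 (scanpy 1.11.5). The free RNA limit used Lyz2 in cells with at most 2 counts of it. Named genes were list genes, the 12 highest and 12 lowest ratios and the 5 leading genes a cluster. The members, lists and rules were chosen with earlier results of these data known. Positions come from GENCODE M21 on GRCm38. Some genes of the lists and of the cluster leaders are not reported here.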

Additional observations from a re-analysis of the deposited data

Results flagged for a closer look

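Hspa8, a constitutive heat shock protein, had opposite signs in the 2 libraries, with log2 ratios of Emb-high over other lung cells of -0.127 in the naive and 0.139 in the 6 h library, and the difference was not tested. Junb stood out since it was higher in Emb-high cells in lung (0.128 naive and 0.0876 at 6 h) but lower in blood (-0.418 and -0.463), which was not tested. The same opposite signs between tissues were seen for Nr4a2, at 0.0875 and 0.286 in lung and -1.39 and -1.52 in blood, and were not tested. For Nr4a3 the values were 0.342 and 0.347 in lung and -1.01 and -1.46 in blood, again not tested. Tsc22d3, a glucocorticoid-induced gene, had the reverse order, with -0.213 and -0.335 in lung and 0.351 and 0.510 in blood, not tested. The blood values rest on 137 and 76 Emb-high cells.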

How the results depend on the processing

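Among the alternative values 356 stayed within the interval of the value reported (counts within 1.5 times) and 112 moved, none with a change of sign. The 356 include log2 ratios of single genes under another minimum of CPM, which cannot change them. The share of Emb-high lung cells depended on the threshold, with 19.1% in the naive and 20.4% in the 6 h library at 300 CPM and 9.96% and 10.7% at 1000 CPM. With narrower limits on genes and at most 4% mitochondrial counts it was 15.2% and 14.2%, and with 99% of tag counts 21.6% and 20.03%. At a minimum of 100 CPM, 62 genes were higher and 43 lower, among them 10 less differentiated NK genes higher and 15 mature NK genes lower. Over all other alternatives the higher genes numbered 100 to 168 and the lower genes 51 to 94. Of the lists, 13 to 17 less differentiated NK genes were higher and 17 to 18 mature NK genes lower. Without cells that had a T cell or ILC1 marker count, 14 less differentiated NK genes were higher. With cells thinned to 3000 counts 1 mature NK gene, Cd55, was higher past the fold, which at full depth stood at 0.37 and 0.63 under the minimum. The Il7r log2 ratio ran from 3.76 to 5.20 in the naive and from 3.36 to 4.14 in the 6 h library. The cluster with the highest share held 79.3% Emb-high cells of 82 at resolution 0.4, 78.6% of 695 at 1.2 and 71.7% of 947 with 20 components, and whether they hold the same cells was not tested. At resolution 0.4 the clusters with over 50% Emb-high cells held 4.58% of them, against 37.8% in the main clustering. At resolution 1.2 such clusters held 39.6% and with 20 components 53.6%, and the cause was not tested. No paired analysis was possible because, between conditions, each is 1 library whose animals cannot be told apart. Emb-high and other cells, and lung and blood, were compared within each library, and no test over the 3 libraries, which differ in condition, was run. Depth limits the low genes, as Cx3cr1 rests on 113 counts in naive and 111 in 6 h Emb-high cells.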
